A study of Mus musculus with 6 samples.

Results

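The 49 genes described here encode the machinery that copies DNA and the enzymes that make its building blocks. They were chosen as a fixed list of gene symbols: the subunits that load, activate and drive the replicative helicase, the DNA polymerases and primase with their clamp, the single-stranded DNA binding protein, the enzymes that finish the lagging strand, 5 enzymes of nucleotide supply, a chromatin assembly factor, and regulators of entry into S phase. All 49 were found among the 16135 genes listed in any library, and all 49 were among the 12127 that passed the filter on low counts. The cells were common dendritic cell progenitors (CDPs), bone marrow precursors of dendritic cells, sorted from wildtype C57BL/6 mice aged 6 to 8 weeks. Sorting on CD115 (the receptor for macrophage colony-stimulating factor, gene Csf1r) and Ly6C (a surface antigen of monocytes and their precursors, genes Ly6c1 and Ly6c2) gave 3 subsets with 2 polyA-selected RNA libraries each: CD115+Ly6C-, called single-positive below, CD115+Ly6C+, called double-positive, and CD115-Ly6C-, called double-negative. No label ties the libraries of a subset to different mice or different sorts, so every p-value here reflects the spread among 6 libraries, which may be technical.

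Replication starts where the origin recognition complex, Cdc6 and Cdt1 load rings of the Mcm2 to Mcm7 helicase onto DNA in G1. In S phase Mcm10, Cdc45 and the GINS complex turn these rings into active helicases, primase and the polymerases copy both strands, and the clamp PCNA holds the polymerases in place. Deoxynucleotides come from ribonucleotide reductase, thymidylate synthase, thymidine kinase and dUTPase, and the cyclin E kinase and E2F factors time the expression and use of the whole set. In bone marrow these genes are known as markers of dividing progenitors.

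The libraries held 17961541 to 19450329 expected counts and 13307 to 14127 genes with reads. Progenitor markers were detected in all 6 libraries and differed between subsets. Flt3 stood at 657 to 666 CPM in the single-positive subset, 342 to 373 in the double-positive subset and 1063 to 1139 in the double-negative subset, where CPM is the count scaled to library size by edgeR's TMM method. Kit stood at 94.9 to 107.6 CPM, 48.9 to 58.8 and 169 to 189.4 in the same order. Of 6 progenitor markers, Flt3, Kit and Cd34 were higher in the double-negative subset, the subset in which many replication genes were lower, than in either other, and Csf1r was lower in the double-negative subset than in both. Csf2ra was highest in the double-positive subset, above each of the others (log2 fold change of the double-negative against the double-positive subset -1.71, edgeR adjusted p = 0.00042). Il3ra passed the threshold given below in no comparison. Csf1r was still at 213 to 259 CPM in the libraries sorted as CD115-. Ly6c2 stood at 1400.5 to 1439 CPM in the double-positive subset, 121 to 188 in the single-positive subset and 41.8 to 61.8 in the double-negative subset. Markers of other lineages also differed between the subsets. Of 12 late neutrophil granule genes, 10 were higher in the double-positive than in the single-positive subset and 12 lower in the double-negative than in the double-positive subset, with summed levels of 254 to 1016 CPM in the single-positive subset, 4280 to 4579 in the double-positive subset and 170.3 to 352 in the double-negative subset, and Ly6g was at 0 in 1 double-negative library. All 8 monocyte genes were higher in the double-positive than in the single-positive subset and lower in the double-negative than in the double-positive subset, and 7 were lower in the double-negative than in the single-positive subset (summed 2090.1 to 2205 CPM in the single-positive subset, 4264 to 4887 in the double-positive subset, 472 to 705 in the double-negative subset). Of 10 B lineage and early lymphoid genes, 7 were higher in the double-negative subset than in either other subset (summed 500.1 to 583 CPM in the single-positive subset, 152 to 181 in the double-positive subset, 3129.5 to 3516 in the double-negative subset), with Ebf1 at 0 in 1 single-positive library and Rag1 at 0 in 1 double-positive library. Of 6 plasmacytoid dendritic cell genes 5 were tested, and 3 were higher in the double-negative than in the single-positive subset. Against the double-positive subset 4 were higher, and Bst2 was lower (log2 fold change -0.43, edgeR adjusted p = 0.0218). The 6 genes summed to 474 CPM in both single-positive libraries, 356 to 410.1 in the double-positive subset and 627 to 669 in the double-negative subset. Of 7 conventional dendritic cell genes, 5 were higher in the double-positive than in the single-positive subset (summed 101 to 106 CPM in the single-positive subset, 243 to 309 in the double-positive subset and 146 to 164 in the double-negative subset). The conventional dendritic cell genes were split between the double-negative and single-positive subsets. H2-Ab1 and Cd74 were higher in the double-negative subset, and Clec9a and Cd209a were lower. The 7 T and NK cell genes summed to 33.8 to 36.7 CPM in the single-positive subset, 5.81 to 8.42 in the double-positive subset and 158 to 159.8 in the double-negative subset. Most of the double-negative sum was Lck (142 and 143 CPM). Of the 3 genes tested, 3 were higher in the double-negative than in the double-positive subset and 2 higher than in the single-positive subset. Cd3e and Cd3g were at 0 in every library but 1 of the double-positive subset. The 8 erythroid genes summed to at most 18.8 CPM in any library. The part of these markers in the results below was not tested. In bulk RNA, fewer cells in S phase and less of a transcript per cell cannot be told apart.

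The replication genes were abundant transcripts. Their median level per length was 82.8 FPKM (fragments scaled by transcript length and library size, mean over the 6 libraries), against 10.1 FPKM over all genes tested. Of the 49, 46 lay above that all-gene median and 23 were in the top 10% of genes. Per length, Pcna was the most abundant at 467 FPKM and E2f1 the least at 5.85 FPKM. No member had fewer than 270 expected counts in any library.

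In the double-negative subset, 25 of the 49 were lower than in the double-positive subset and 18 were lower than in the single-positive subset by edgeR's quasi-likelihood test (Benjamini-Hochberg adjusted p under 0.05, over all 12127 genes). Over all genes tested, 19.2% were lower in the first of these comparisons and 6.78% in the second. Among the MCM helicase subunits, none of the 6 was lower in the double-negative subset in either comparison, and Mcm2 and Mcm6 were higher in the double-negative than in the double-positive subset. Of the enzymes of nucleotide supply, 5 of 5 were lower in the double-negative than in the double-positive subset. The summed CPM of the 49 was lowest in the double-negative subset, at 0.793 times that in the single-positive subset and 0.836 times that in the double-positive subset. Summed as TPM (FPKM rescaled to the same total in every library, with no TMM factor), the level in the double-negative subset was 0.872 times that in the single-positive subset but 1.017 times that in the double-positive subset, so against the double-positive subset the direction of the sum turned with the scale. In TPM the sums were 8733 and 9370 in the double-positive libraries and 8949 and 9464 in the double-negative libraries, which overlapped.

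Thymidine kinase Tk1 (Entrez gene 21877, chromosome 11, 117815519 to 117826087 of GRCm38.p6), which phosphorylates salvaged thymidine, had the smallest adjusted p of all 49. Its level was 242 and 239 CPM in the single-positive, 339.6 and 366 in the double-positive and 129 and 137 in the double-negative libraries. The 3 subsets did not overlap, with the double-positive subset highest and the double-negative subset lowest. Against the double-positive subset, the level in the double-negative subset was 2.65-fold lower, a log2 fold change of -1.40 (SE 0.10) with an edgeR adjusted p of 4.37e-05. Against the single-positive subset the log2 fold change in the double-negative subset was -0.85 (SE 0.10), edgeR adjusted p = 0.00201. The double-positive subset was 1.47-fold above the single-positive subset, with a log2 fold change of 0.55 (SE 0.10) and an edgeR adjusted p of 0.0158.

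Thymidylate synthase Tyms (Entrez gene 22171, chromosome 5, 30038546 to 30073645), which makes dTMP from dUMP, followed the same order. It stood at 189 and 183 CPM in the single-positive, 258 and 276 in the double-positive and 121 and 133 in the double-negative libraries. Again no library of one subset reached the range of another. The log2 fold change of the double-negative subset was -1.07 (SE 0.11) against the double-positive subset and -0.55 (SE 0.10) against the single-positive subset (edgeR adjusted p = 0.000164 and 0.0123). The double-positive subset was above the single-positive subset by 0.52 (SE 0.10), edgeR adjusted p = 0.0205. The expected counts of Tyms were not whole in any of the 6 libraries, as RSEM gives where reads fit more than 1 gene, so its level is less certain than that of Tk1.

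Rrm2 (Entrez gene 20135, chromosome 12, 24708254 to 24714146) encodes the small, S phase subunit of ribonucleotide reductase, and Rrm1 its large subunit. Rrm2 stood at 452 and 424 CPM in the single-positive, 445 and 556 in the double-positive and 246 and 292 in the double-negative libraries. Both double-negative libraries were below all others, while the ranges of the CD115+ subsets overlapped. The double-negative subset was lower by a log2 change of -0.90 (SE 0.14) against the double-positive subset and -0.70 (SE 0.14) against the single-positive subset (edgeR adjusted p = 0.00153 and 0.0136). Rrm1 was at 1238 and 1176 CPM in the single-positive, 1115 and 1127 in the double-positive and 757 and 832 in the double-negative libraries, and it too was lowest in the double-negative subset, with a log2 fold change of -0.50 (SE 0.10) against the double-positive subset and -0.60 (SE 0.10) against the single-positive subset (edgeR adjusted p = 0.00586 and 0.0077). Per length, Rrm1 exceeded Rrm2 in each subset, with a ratio of FPKM of 1.46 in the single-positive subset, 1.19 in the double-positive subset and 1.57 in the double-negative subset. Dut, the dUTPase that keeps uracil out of DNA, fell in the double-negative against the double-positive subset (log2 fold change -0.54 (SE 0.10), edgeR adjusted p = 0.00441). Its difference from the single-positive subset was -0.22 (SE 0.10), edgeR adjusted p = 0.186.

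**Figure D1:**
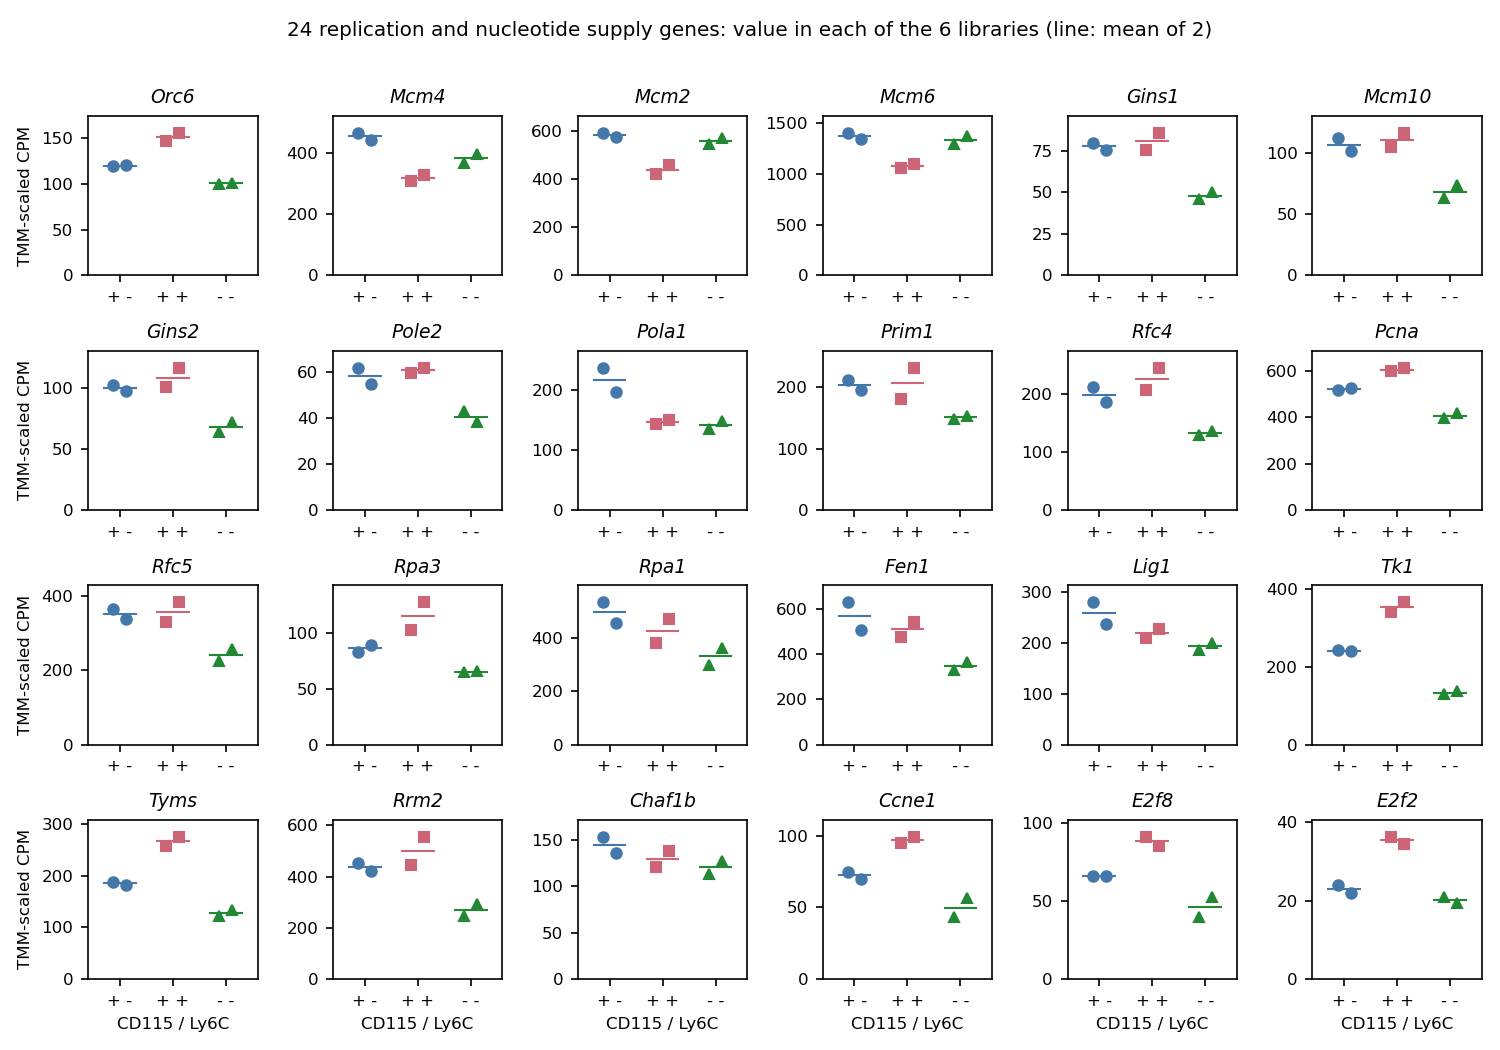
TMM-scaled CPM (vertical axis, from 0) of 24 of the 49 genes in each of the 6 libraries, with 1 panel per gene, subsets named by CD115 and Ly6C status on the horizontal axis, points for libraries and lines for the mean of 2. Tk1 and Tyms fall in 3 separate steps from CD115+Ly6C+ to CD115-Ly6C-, whereas Mcm2, Mcm4 and Mcm6 are lowest in CD115+Ly6C+.

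The helicase subunits did not follow that order. Mcm4 (Entrez gene 17217, chromosome 16, 15623897 to 15637400), 1 of the 6 subunits of the hexamer, stood at 466 and 444 CPM in the single-positive, 309 and 327 in the double-positive and 369 and 398 in the double-negative libraries. The CD115+ subsets were well apart, with the single-positive subset high, the double-positive subset low and the double-negative subset between them. The log2 fold change of the double-positive against the single-positive subset was -0.52 (SE 0.10), edgeR adjusted p = 0.0205, while the double-negative against the double-positive subset was 0.27 (SE 0.10) and missed the threshold (edgeR adjusted p = 0.0646).

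Mcm2 (Entrez gene 17216, chromosome 6, 88883474 to 88898780), which also carries histones at the fork, was at 589 and 571 CPM in the single-positive, 419 and 455 in the double-positive and 543 and 570.0 in the double-negative libraries. Only the double-positive libraries were low, and the single-positive and double-negative ranges nearly met. It was lower in the double-positive than in the single-positive subset (log2 fold change -0.41 (SE 0.10), edgeR adjusted p = 0.0412) and higher in the double-negative than in the double-positive subset (0.35 (SE 0.10), edgeR adjusted p = 0.026). Mcm6 (Entrez gene 17219, chromosome 1, 128331575 to 128359705) was at 1398 and 1345 CPM in the single-positive, 1056 and 1096 in the double-positive and 1289.9 and 1365 in the double-negative libraries, and its single-positive and double-negative ranges overlapped. It was higher in the double-negative than in the double-positive subset (0.30 (SE 0.10), edgeR adjusted p = 0.0389), and its log2 fold change of the double-positive against the single-positive subset was -0.35 (SE 0.10), edgeR adjusted p = 0.0601. All 6 subunits had both double-positive libraries below both single-positive libraries, and 17 of the 49 genes did, against 28.4% of all genes tested. Mcm3, Mcm5 and Mcm7 had log2 fold changes of -0.29, -0.12 and -0.12 for the double-positive against the single-positive subset, none past the threshold. For the double-negative against the double-positive subset they had 0.11, -0.13 and -0.01, none past the threshold. Both double-negative libraries of Mcm5 lay below those of the other subsets. Against the single-positive subset, all 6 subunits were below 0 in the double-negative subset, none past the threshold. The rise of Mcm2 and Mcm6 in the double-negative against the double-positive subset depended on the treatment of gene length: with the trend of fold change over length removed, their edgeR adjusted p was 0.108 and 0.0834, and 0 of the 49 genes were higher. That of Mcm6 was also lost with DESeq2's size factors in edgeR (adjusted p = 0.0508). The lower call of Mcm2 in the double-positive against the single-positive subset was lost in 9 of the 14 alternatives, among them the length trend removed (edgeR adjusted p = 0.0818). The median of the 6 subunits for the double-negative against the double-positive subset stayed above 0 under each of the 14 alternatives run (0.10 to 0.38).

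Set against each other, the summed CPM of the 5 nucleotide supply genes was 49.8% and 48.6% of that of the 6 helicase subunits in the libraries of the single-positive subset. It was 65.0% and 66.7% in the double-positive subset and 34.8% and 36.5% in the double-negative subset. The subsets did not overlap in this ratio. A single scaling factor per library cancels in it, but a trend over gene length does not. Both groups were set against each other with their values known. The spread among subunits was wide within each subset, since the most abundant of the 6 per length had 3.66 times the FPKM of the least in the single-positive subset, 4.11 times in the double-positive subset and 4.19 times in the double-negative subset. Mcm6 was the highest (482, 360.0 and 507 FPKM in the single-positive subset, the double-positive subset and the double-negative subset) and Mcm4 the lowest (132, 87.6 and 121 FPKM).

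Replication genes are classic targets of E2F factors, which bind promoters, so the promoter letters of 6 members from the ends of this range are shown: Mcm6, Mcm2 and the polymerase gene Pola1, which were not at their highest in the double-positive subset, and Tk1, Tyms and Rrm2, whose means were highest there. They were chosen with their values known. Each line gives the 250 bases before a transcript start annotated by RefSeq on GRCm38.p6, 5′ to 3′ on the strand of the gene. Capitals mark the E2F words TTTCCCGC, TTTCGCGC, TTTGCCGC and TTTGGCGC on either strand, which can overlap, and the CCAAT box word CCAAT on either strand. The windows are chr1:128359706-128359955, minus strand for Mcm6, chr6:88898781-88899030, minus strand for Mcm2, chrX:93632156-93632405, minus strand for Pola1, chr11:117826015-117826264, minus strand for Tk1, chr5:30073626-30073875, minus strand for Tyms and chr12:24708004-24708253, plus strand for Rrm2.
Mcm6: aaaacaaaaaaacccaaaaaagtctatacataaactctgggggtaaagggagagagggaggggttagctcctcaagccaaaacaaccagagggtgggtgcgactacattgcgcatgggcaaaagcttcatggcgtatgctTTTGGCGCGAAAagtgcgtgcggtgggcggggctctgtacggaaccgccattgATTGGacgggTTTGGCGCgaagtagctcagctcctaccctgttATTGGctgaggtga
Mcm2: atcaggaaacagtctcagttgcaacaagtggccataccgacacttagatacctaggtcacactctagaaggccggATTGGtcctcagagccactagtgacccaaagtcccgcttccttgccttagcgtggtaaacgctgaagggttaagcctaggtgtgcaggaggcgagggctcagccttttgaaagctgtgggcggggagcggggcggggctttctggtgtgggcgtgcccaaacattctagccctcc
Pola1: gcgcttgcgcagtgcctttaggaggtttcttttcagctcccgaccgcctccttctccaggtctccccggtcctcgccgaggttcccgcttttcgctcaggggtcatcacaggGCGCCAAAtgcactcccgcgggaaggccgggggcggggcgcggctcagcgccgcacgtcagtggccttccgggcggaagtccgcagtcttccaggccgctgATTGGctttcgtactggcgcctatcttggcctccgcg
Tk1: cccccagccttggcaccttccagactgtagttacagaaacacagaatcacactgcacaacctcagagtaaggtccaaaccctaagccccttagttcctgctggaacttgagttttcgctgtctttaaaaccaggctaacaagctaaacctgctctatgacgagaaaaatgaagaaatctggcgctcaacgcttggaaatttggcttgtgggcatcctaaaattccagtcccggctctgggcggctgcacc
Tyms: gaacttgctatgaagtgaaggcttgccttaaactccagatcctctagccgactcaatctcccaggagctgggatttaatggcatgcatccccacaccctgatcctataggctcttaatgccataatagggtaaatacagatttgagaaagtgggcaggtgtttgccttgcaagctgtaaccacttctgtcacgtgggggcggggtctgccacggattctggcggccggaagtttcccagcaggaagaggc
Rrm2: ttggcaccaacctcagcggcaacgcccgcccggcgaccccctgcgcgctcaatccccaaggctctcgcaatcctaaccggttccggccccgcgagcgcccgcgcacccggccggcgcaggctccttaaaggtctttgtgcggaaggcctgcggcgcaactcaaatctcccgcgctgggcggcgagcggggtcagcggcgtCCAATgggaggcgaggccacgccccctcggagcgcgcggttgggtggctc

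The Mcm6 stretch held 3 E2F words, of which a pair overlaps, and 2 CCAAT words. That of Pola1 held 1 of each, those of Mcm2 and Rrm2 a single CCAAT word, and those of Tk1 and Tyms neither. The stretches of Pola1, Tk1 and Tyms precede a start inside the annotated gene span and lie partly within that span, whereas the others border it. Bases before the outer end of Pola1, Tk1 and Tyms were therefore read only in part. RefSeq windows of 300 bases (250 before and 50 after the start) were at hand for 41 of the 49 genes. An E2F word was present in 15 of the 41 (36.6%), against 704 of 27025 genes with such a window (2.6%), and CCAAT in 26 of the 41 (63.4%) against 41.1%. By role, 4 of 5 helicase subunits and 3 of 5 licensing genes had an E2F word, and 0 of 5 nucleotide supply genes did. For the double-negative against the double-positive subset the median log2 fold change was -0.06 in the 15 genes with a word (3 lower, 1 higher) and -0.54 in the 26 without (16 lower, 1 higher). Over all genes tested 19.2% were lower and 20.1% higher, so the 3 of 15 were near the share of all genes. The 8 members without a window did not enter. The words were spread unevenly over the role groups, and a split beyond that between role groups was not tested. A match describes letters only, and these words are a small part of what E2F factors bind.

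In origin licensing, 1 of 5 genes was lower in the double-negative than in the double-positive subset, near the 19.2% of all genes, and 0 of 5 were lower than in the single-positive subset. Orc6 (Entrez gene 56452, chromosome 8, 85299632 to 85308279), a subunit of the origin recognition complex, stood at 119 and 120.3 CPM in the single-positive, 147 and 155 in the double-positive and 99.7 and 101 in the double-negative libraries. The 3 subsets were separate, highest in the double-positive subset. Its log2 fold change was -0.59 (SE 0.10) for the double-negative against the double-positive subset (edgeR adjusted p = 0.00215), and 0.33 for the double-positive against the single-positive subset with an adjusted p of 0.0668. Orc1, Orc2, Cdc6 and Cdt1 passed in no comparison, with log2 fold changes for the double-negative against the double-positive subset of 0.16, -0.18, -0.08 and -0.01.

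Of the 6 genes of helicase activation, 5 were lower in the double-negative than in the double-positive subset and 3 lower than in the single-positive subset, with median log2 fold changes of -0.63 and -0.55. Gins1 (Entrez gene 69270, chromosome 2, 150909556 to 150931280), a subunit of the GINS complex, was at 79.5 and 75.5 CPM in the single-positive, 75.5 and 85.6 in the double-positive and 46.0 and 50.1 in the double-negative libraries. Both double-negative libraries were far below the other 4, which overlapped. The log2 fold change of the double-negative subset was -0.75 (SE 0.12) against the double-positive subset and -0.69 (SE 0.12) against the single-positive subset (edgeR adjusted p = 0.00195 and 0.00906).

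Mcm10 (Entrez gene 70024, chromosome 2, 4990724 to 5012791), a firing factor and not part of the hexamer, was at 112 and 102 CPM in the single-positive, 105 and 116 in the double-positive and 63.0 and 73.7 in the double-negative libraries. It had the same split, with log2 fold changes of -0.70 (SE 0.12) and -0.65 (SE 0.12) for the double-negative against the double-positive subset and the single-positive subset (edgeR adjusted p = 0.003 and 0.0127). Gins2 (Entrez gene 272551, chromosome 8, 120581266 to 120589075) was at 103 and 97.3 CPM in the single-positive, 100.3 and 116 in the double-positive and 63.5 and 71.8 in the double-negative libraries, again with the double-negative subset lowest, and fell by log2 fold changes of -0.68 (SE 0.12) and -0.56 (SE 0.12) (edgeR adjusted p = 0.00321 and 0.0204). Exons of Gse1 on the opposite strand cover 67.3% of all exon bases annotated for Gins2, which are more than the 1061 nucleotides quantified. The share of the quantified length was not tested, and the expected counts of Gins2 were whole in every library. The strandedness of the libraries is not given in the sources used here, so reads in shared bases cannot be told apart by strand. With the length trend removed, the call of Gins2 against the double-positive subset was lost (edgeR adjusted p = 0.0861). Cdc45 and Gins4 fell in the double-negative against the double-positive subset (-0.55 and -0.59, edgeR adjusted p = 0.00503 and 0.00555). Against the single-positive subset they had -0.25 and -0.24 (edgeR adjusted p = 0.15 and 0.197), while Gins3 had -0.43 against the double-positive subset and passed nowhere (edgeR adjusted p = 0.0693).

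Of the 8 polymerase and primase genes, 3 were lower in the double-negative than in the double-positive subset and 3 lower than in the single-positive subset. Pola1 (Entrez gene 18968, chromosome X, 93304766 to 93632387), the catalytic subunit of the priming polymerase alpha, was at 237 and 196 CPM in the single-positive, 143 and 149.6 in the double-positive and 134 and 149 in the double-negative libraries. Here the single-positive subset alone was high and the other subsets overlapped. The double-positive subset and the double-negative subset were lower than the single-positive subset by a log2 change of -0.56 (SE 0.12) and -0.61 (SE 0.12) (edgeR adjusted p = 0.0281 and 0.0144), and the difference between them was -0.05 (SE 0.12). The first of these calls was lost with the length trend removed (edgeR adjusted p = 0.11).

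Pole2 (Entrez gene 18974, chromosome 12, 69201773 to 69228205), the second subunit of the leading-strand polymerase epsilon, stood at 61.9 and 54.7 CPM in the single-positive, 59.6 and 62.0 in the double-positive and 42.9 and 38.2 in the double-negative libraries. It was lowest in both double-negative libraries, by a log2 change of -0.58 (SE 0.13) against the double-positive subset and -0.52 (SE 0.13) against the single-positive subset (edgeR adjusted p = 0.0083 and 0.0313), and the second call was lost with library totals as scaling (edgeR adjusted p = 0.0729). Prim1 (Entrez gene 19075, chromosome 10, 128015215 to 128030030), the catalytic primase subunit, was at 211 and 195 CPM in the single-positive, 181 and 232 in the double-positive and 148 and 153 in the double-negative libraries, lower in the double-negative than in the double-positive subset by a log2 change of -0.45 (SE 0.13) (edgeR adjusted p = 0.0252), a call lost in 7 of the 14 alternatives, among them library totals (edgeR adjusted p = 0.119). Its partner Prim2 fell in the double-negative subset against both others (-0.42 and -0.56, edgeR adjusted p = 0.0341 and 0.0262). The first of these calls was lost in 8 of the 14 alternatives, among them library totals and the length trend removed (edgeR adjusted p = 0.162 and 0.0725). The catalytic subunits Pold1 and Pole, with Pola2 and Pold2, passed in no comparison. For the double-negative against the double-positive subset their log2 fold changes were 0.16, 0.24, 0.08 and -0.21. The median of the 8 genes for that comparison was -0.13 and turned to 0.06 with library totals.

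**Figure D2:**
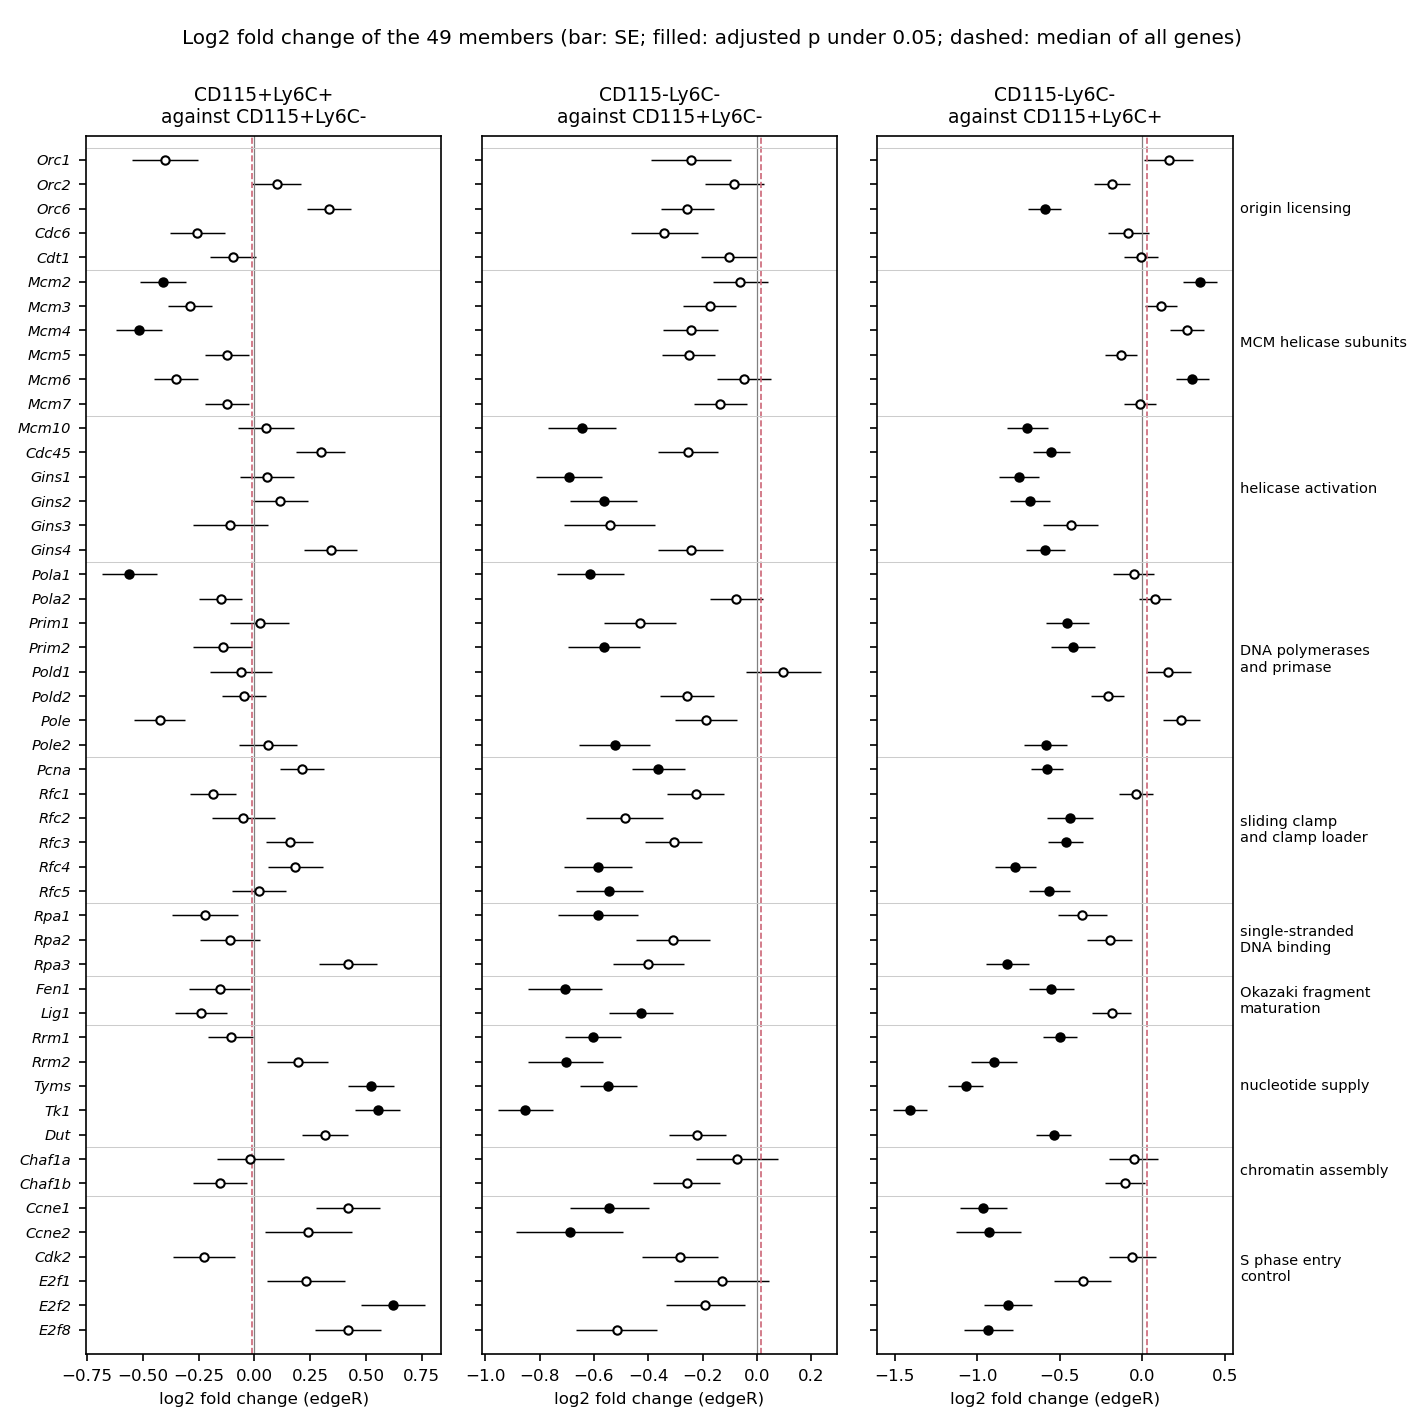
Log2 fold change (horizontal axis) of each of the 49 genes in the 3 comparisons, in blocks by role, with bars for the SE, filled points for an edgeR adjusted p under 0.05 and a dashed line at the median of all genes tested. In the right panel the 6 helicase subunits lie around or above 0 while the 5 nucleotide supply genes lie between -0.50 and -1.40.

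The sliding clamp and its loader were lower in the double-negative subset, with 5 of 6 genes past the threshold against the double-positive subset and 3 against the single-positive subset. Pcna (Entrez gene 18538, chromosome 2, 132249286 to 132253180), the clamp, stood at 515 and 527 CPM in the single-positive, 596 and 613 in the double-positive and 394 and 416 in the double-negative libraries. The 3 subsets did not overlap. The double-negative subset was lower by a log2 change of -0.58 (SE 0.10) against the double-positive subset and -0.36 (SE 0.10) against the single-positive subset (edgeR adjusted p = 0.00236 and 0.041). With the length trend removed both calls were lost (edgeR adjusted p = 0.0612 and 0.134). The call against the single-positive subset was lost in 11 of the 14 alternatives in all, among them library totals (edgeR adjusted p = 0.111), limma and each fit that left out 1 library.

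Rfc4 (Entrez gene 106344, chromosome 16, 23113948 to 23127730), a small subunit of the loader, was at 211 and 186 CPM in the single-positive, 206 and 245 in the double-positive and 128 and 136 in the double-negative libraries. It was clearly lowest in the double-negative subset and overlapped between the CD115+ subsets. Its log2 fold changes in the double-negative subset were -0.77 (SE 0.12) and -0.59 (SE 0.12) (edgeR adjusted p = 0.00186 against the double-positive subset and 0.018 against the single-positive subset). Rfc5 (Entrez gene 72151, chromosome 5, 117379145 to 117389023) was at 366 and 339.5 CPM in the single-positive, 331 and 384 in the double-positive and 225 and 259 in the double-negative libraries, with -0.56 (SE 0.12) and -0.54 (SE 0.12) (edgeR adjusted p = 0.00737 and 0.0223). Opposite-strand exons of Eif4a2, Wsb2 and Lat2 cover 12.7%, 10.7% and 15.1% of the exon bases of Rfc4, Rfc5 and the further subunit gene Rfc2. Rfc2 and Rfc3 fell against the double-positive subset (-0.44 and -0.46, edgeR adjusted p = 0.037 and 0.00898). Against the single-positive subset they had -0.49 and -0.31, with edgeR adjusted p of 0.0502 and 0.0833. With library totals both calls were lost (edgeR adjusted p = 0.157 and 0.0663). The large subunit Rfc1 had -0.04, edgeR adjusted p = 0.796.

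Of the 3 subunits of the single-stranded DNA binding protein RPA, 1 was lower in the double-negative than in the double-positive subset and 1 lower than in the single-positive subset, and a difference between subunits was not tested. Rpa3 (Entrez gene 68240, chromosome 6, 8255936 to 8259141), its smallest subunit and the shortest transcript of the 49 at 655 nucleotides, was at 82.7 and 89.7 CPM in the single-positive, 103 and 128 in the double-positive and 65.0 and 65.7 in the double-negative libraries. The subsets were separate, the double-positive subset highest. The fall in the double-negative against the double-positive subset was -0.82 (SE 0.13) (edgeR adjusted p = 0.00174), and with the length trend removed the adjusted p was 0.183. Against the single-positive subset it had -0.40 (edgeR adjusted p = 0.0725). Rpa1 (Entrez gene 68275, chromosome 11, 75300259 to 75348454), the large subunit, was at 532 and 456 CPM in the single-positive, 380.2 and 468 in the double-positive and 298 and 361 in the double-negative libraries, and was lower in the double-negative than in the single-positive subset by a log2 change of -0.58 (SE 0.15) (edgeR adjusted p = 0.0333). Library totals ended that call (edgeR adjusted p = 0.0515). Rpa2 passed nowhere, with -0.31 against the single-positive subset and -0.20 against the double-positive subset.

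Both genes of Okazaki fragment maturation were lower in the double-negative than in the single-positive subset. Fen1 (Entrez gene 14156, chromosome 19, 10199132 to 10204393), the flap endonuclease, was at 631 and 507 CPM in the single-positive, 479 and 543 in the double-positive and 329 and 368 in the double-negative libraries. Both double-negative libraries were below the rest, and the CD115+ ranges overlapped. Its log2 fold change was -0.71 (SE 0.14) against the single-positive subset and -0.55 (SE 0.14) against the double-positive subset (edgeR adjusted p = 0.0125 and 0.0129). Exons of the antisense gene Gm10143 cover 78.8% of all exon bases annotated for Fen1, and reads in shared bases cannot be told apart by strand. The expected counts of Fen1 were whole in every library. Lig1 (Entrez gene 16881, chromosome 7, 13277175 to 13311426), the nick-sealing ligase, was at 281 and 238 CPM in the single-positive, 211 and 228 in the double-positive and 185 and 201 in the double-negative libraries, with -0.43 (SE 0.12) against the single-positive subset (edgeR adjusted p = 0.0442) and -0.19 (SE 0.12) against the double-positive subset (edgeR adjusted p = 0.246). The first was lost in 10 of the 14 alternatives, among them library totals (edgeR adjusted p = 0.0949).

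No gene of chromatin assembly factor 1, which places histones on new DNA, passed in any comparison. Chaf1b (Entrez gene 110749, chromosome 16, 93883900 to 93906115) stood at 154 and 136 CPM in the single-positive, 121 and 139 in the double-positive and 114 and 128 in the double-negative libraries. The largest of its 3 log2 fold changes in size was -0.26 (SE 0.12) for the double-negative against the single-positive subset (edgeR adjusted p = 0.183). Those of Chaf1a lay between -0.07 and -0.02. Exons of Ubxn6 on the opposite strand cover 52.5% of all exon bases annotated for Chaf1a, which are more than the 3308 nucleotides quantified.

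Among regulators of S phase entry, 4 of 6 were lower in the double-negative than in the double-positive subset and 2 lower than in the single-positive subset. Cyclin E1, Ccne1 (Entrez gene 12447, chromosome 7, 38097984 to 38107490), the partner of Cdk2, was at 75.0 and 70.2 CPM in the single-positive, 94.8 and 99.4 in the double-positive and 43.2 and 56.4 in the double-negative libraries. The 3 subsets were separate. The double-negative subset was 1.95-fold lower than the double-positive subset (log2 fold change -0.96 (SE 0.14), edgeR adjusted p = 0.00127) and lower than the single-positive subset by a log2 change of -0.54 (SE 0.14) (edgeR adjusted p = 0.0386), the latter lost in 8 of the 14 alternatives, among them library totals (edgeR adjusted p = 0.0695).

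E2f8 (Entrez gene 108961, chromosome 7, 48866429 to 48882073), an atypical E2F that represses, stood at 66.0 and 66.3 CPM in the single-positive, 91.4 and 85.4 in the double-positive and 39.7 and 52.8 in the double-negative libraries. E2f2 (Entrez gene 242705, chromosome 4, 136172274 to 136196057), an activator, was at 24.1 and 22.0 CPM in the single-positive, 36.3 and 34.5 in the double-positive and 20.9 and 19.5 in the double-negative libraries. Both were highest in the double-positive subset, and both were lower in the double-negative than in the double-positive subset, by a log2 change of -0.93 (SE 0.15) and -0.81 (SE 0.14) (edgeR adjusted p = 0.00178 and 0.00296). E2f2 was also higher in the double-positive than in the single-positive subset (0.62 (SE 0.14), edgeR adjusted p = 0.0337), which limma on log2(FPKM + 1) did not call (adjusted p = 0.103). Ccne2, whose counts were not whole in any library, fell in the double-negative subset against both others (-0.93 and -0.69, edgeR adjusted p = 0.00673 and 0.0485), the second lost with library totals (edgeR adjusted p = 0.0721). Opposite-strand exons of Ints8 and Gm2788 cover 17.4% and 11.2% of the exon bases of Ccne2 and E2f8. Cdk2 and E2f1 passed nowhere, with -0.06 and -0.36 against the double-positive subset.

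**Figure D3:**
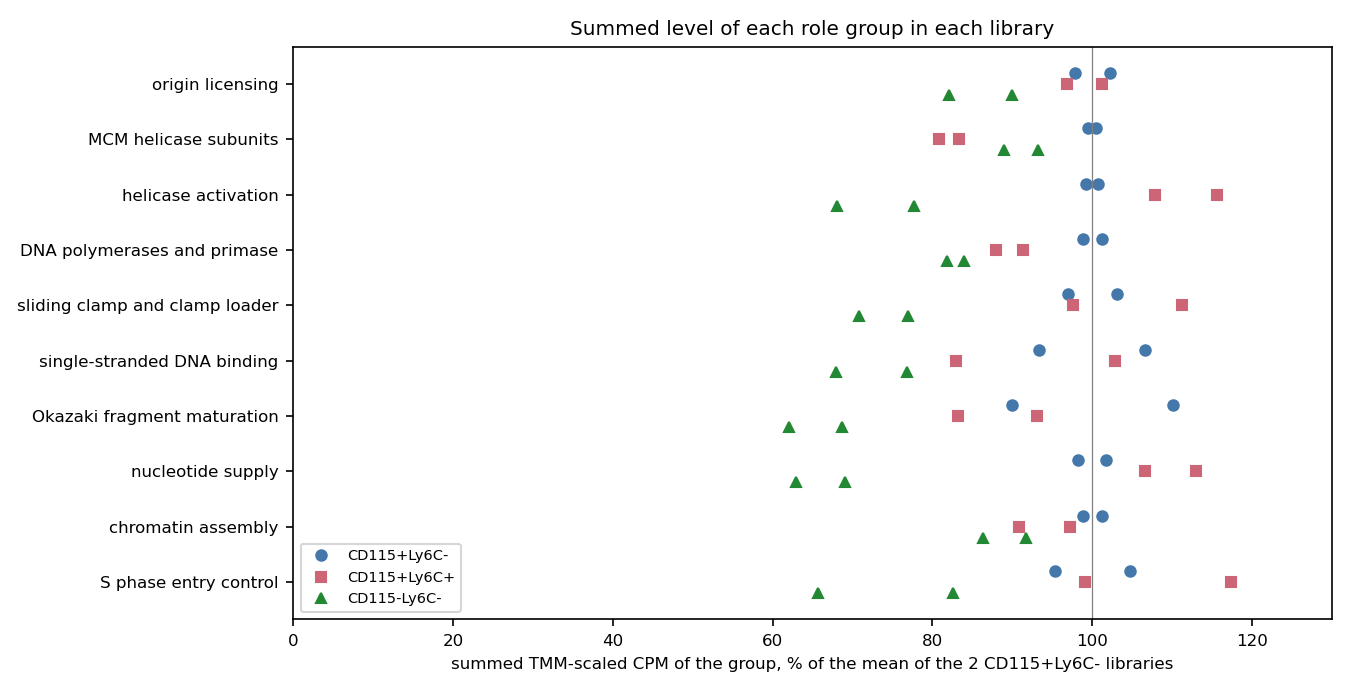
Summed TMM-scaled CPM of each role group in each library, as a percentage of the mean of both CD115+Ly6C- libraries (horizontal axis), with 1 row per role group and 1 symbol per subset. Both CD115-Ly6C- libraries lie left of the other 4 in every row but those of chromatin assembly, where the subsets overlap, and of the MCM helicase subunits, where the CD115+Ly6C+ libraries lie furthest left.

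This order of the role groups holds for TMM-scaled CPM. Summed as TPM, the double-negative subset stood at 1.08 times the double-positive subset in origin licensing, 1.122 times in the polymerases and primase, 1.23 times in chromatin assembly and 1.44 times in the helicase subunits. It stood at 0.724 times the double-positive subset in nucleotide supply, 0.842 times in helicase activation, and between 0.90 and 0.949 times in the other 4 groups.

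Taking the comparisons one by one, the double-negative against the double-positive subset was the widest. Beside the 25 lower genes, 2 were higher (Mcm2 and Mcm6, against 20.1% of all genes) and 22 passed in neither direction. At an unadjusted edgeR p under 0.05, 30 of the 49 passed in either direction, against 48.8% of all genes. The median log2 fold change was -0.43 in the 49 genes and 0.03 in all genes tested. With library totals as scaling, which moved the all-gene median to 0.22, 21 were lower and 6 higher. Leaving out any 1 library left 18 to 25 of the 25 lower genes past the threshold. The 2 higher genes were both lost without either replicate of the double-positive subset or either replicate of the double-negative subset (edgeR adjusted p between 0.0563 and 0.194).

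For the double-negative against the single-positive subset, 18 genes were lower, 0 were higher (against 8.43% of all genes) and 31 passed in neither direction. At an unadjusted edgeR p under 0.05, 30 of the 49 passed, against 32.2% of all genes. The log2 fold change was below 0 in 48 of the 49 (48.3% of all genes), the exception being Pold1 at 0.10. The median was -0.31 in the 49 genes and 0.02 in all genes tested. DESeq2 called 0 higher too. Fits with 1 library fewer kept fewer of these calls. Without replicate 1 of the single-positive subset, or without replicate 1 of the double-negative subset, Tk1 alone of the 18 passed (edgeR adjusted p of the other 17 from 0.0567 to 0.237 and from 0.0779 to 0.267). Without replicate 2 of the single-positive subset, 8 of the 18 passed. The calls of all genes tested fell at the same time, from 1844 to 498, 485 and 965 in these 3 fits, while the median of the 49 genes was -0.33, -0.26 and -0.35.

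Of the 49 genes, 15 were lower in the double-negative subset in both comparisons, against 6.09% of all genes. Both comparisons share the double-negative libraries. In 30 of the 49, both double-negative libraries lay below all 4 others, which held for 22.8% of all genes, and in 0 of the 49 did both lie above (25.7% of all genes).

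The double-positive subset and the single-positive subset differed little over the list as a whole. In the double-positive subset, 3 genes were higher (Tyms, Tk1 and E2f2, against 5.26% of all genes) and 3 were lower (Mcm2, Mcm4 and Pola1, against 4.34%), so each share was near that over all genes. At an unadjusted edgeR p under 0.05, 17 of the 49 passed in either direction, against 27.9% of all genes. The median log2 fold change was -0.05 in the 49 genes and -0.01 in all genes tested. Both double-positive libraries lay above both single-positive libraries in 14 of the 49 (28.8% of all genes). DESeq2 called 6 higher and 6 lower. Without replicate 1 of the single-positive subset 0 of these 6 calls were left, without its replicate 2 Pola1 alone, without replicate 1 of the double-positive subset Tk1 alone, and without replicate 2 of the double-positive subset 0 (edgeR adjusted p of the lost calls from 0.06 to 0.181). The call of Mcm2 was also lost without either double-negative library, since all subsets share 1 estimate of the spread (edgeR adjusted p = 0.0613 and 0.0702).

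**Figure D4:**
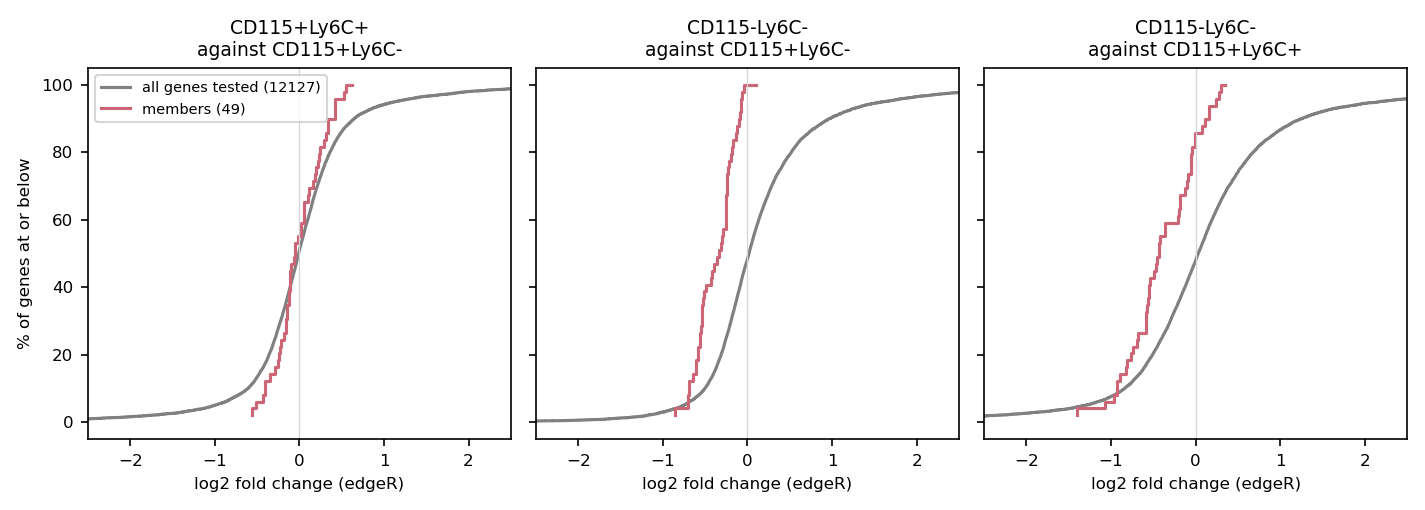
Share of genes (vertical axis, %) at or below each log2 fold change (horizontal axis) in the 3 comparisons, with the 49 genes in red and all 12127 genes tested in grey. The red curve lies left of the grey one over most of its height in both panels of CD115-Ly6C-, where the medians are -0.31 and -0.43, and close to it in the left panel, where the median is -0.05.

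Libraries of a subset also differed from each other across these genes. In the single-positive subset replicate 1 was the higher in 35 of the 49, in the double-positive subset replicate 2 in 38, and in the double-negative subset replicate 2 in 42, with median log2 differences of replicate 2 minus replicate 1 of -0.07, 0.09 and 0.12. Over all genes tested replicate 2 was the higher in 49.95%, 50.2% and 51.8%. These shifts were smaller than the median differences of the double-negative subset from the other subsets. The 49 genes summed to 14214 and 13564 CPM in the single-positive subset, 12672 and 13675 in the double-positive subset, and 10586 and 11432 in the double-negative subset.

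Gene length moved with the fold changes. Across all genes tested, Spearman's rho between length and log2 fold change was -0.33 for the double-positive against the single-positive subset, 0.18 for the double-negative against the single-positive subset and 0.33 for the double-negative against the double-positive subset. In the 49 genes it was -0.41, 0.27 and 0.42. These describe genes measured in the same 6 libraries, which are not independent replicates. For the double-negative against the double-positive subset, all genes were cut by length into 4 classes of equal size, of which the shortest (up to 1773 nucleotides) had a median of -0.34 and the longest 0.31. The members' medians in these classes were -0.59 (n = 14) and -0.05 (n = 5), and -0.42 (n = 13) and -0.18 (n = 17) in the classes between, each below that of all genes of like length. With the length trend removed, 17 genes were lower in the double-negative than in the double-positive subset, all of them among the 25, 18 were lower than in the single-positive subset (17 shared), and in the double-positive against the single-positive subset 3 were higher and 1 lower. All 5 nucleotide supply genes and 4 of 6 S phase entry genes were among those 17, and the calls lost were Gins2, Gins4, Prim1, Prim2, Pcna, Rfc2, Rfc3 and Rpa3. Over all 12127 genes, calls in either direction fell at the same time. They went from 4768 to 3859 for the double-negative against the double-positive subset and from 1844 to 1657 against the single-positive subset. For the double-positive against the single-positive subset they went from 1164 to 716. Differences in RNA quality or fragment length between libraries were not tested.

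**Figure D5:**
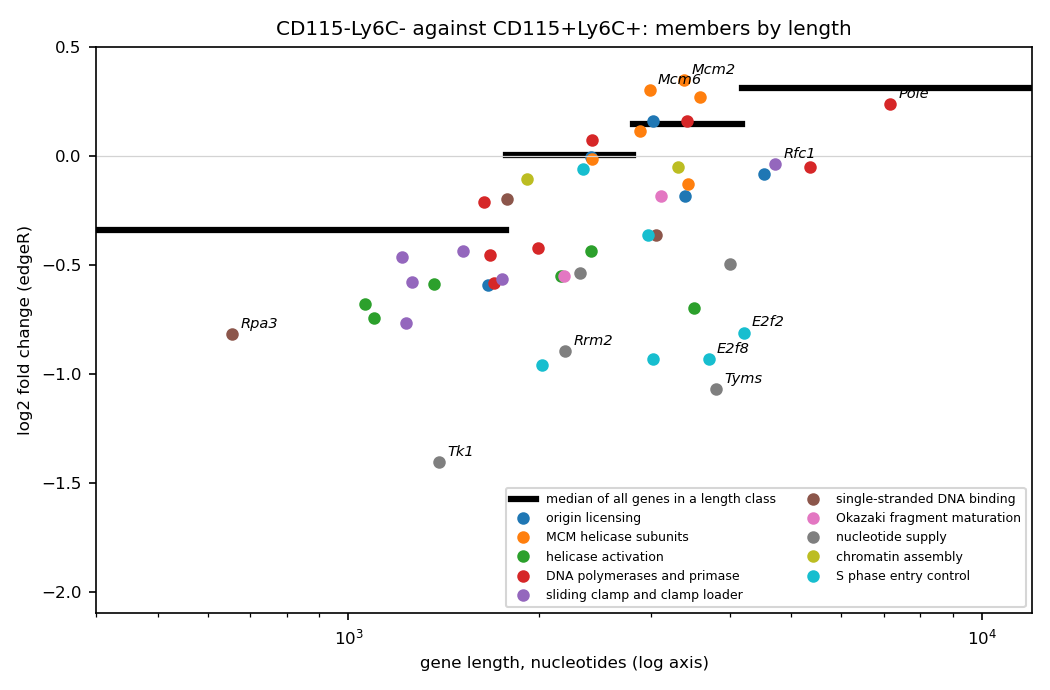
Log2 fold change of CD115-Ly6C- against CD115+Ly6C+ (vertical axis) over gene length (horizontal axis, log scale) for the 49 genes, coloured by role, with black bars at the median of all genes in each of 4 length classes. The members rise with length as all genes do, from Rpa3 at 655 nucleotides to Pole, and Tk1, Tyms, Rrm2, E2f2 and E2f8 lie well below the bar of their length.

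A second list of 67 genes of DNA replication, nucleotide metabolism and S phase that are not among the 49 was read the same way, and all 67 were tested. In the double-negative subset, 23 were lower and 10 higher than in the double-positive subset (34.3% and 14.9%, against 19.2% and 20.1% of all genes). Against the single-positive subset, 11 were lower and 1 higher (16.4% and 1.49%, against 6.78% and 8.43%). In the double-positive subset, 8 were higher and 2 lower than in the single-positive subset (11.9% and 2.99%, against 5.26% and 4.34%). The medians were -0.18, -0.24 and -0.02. The 29 further replisome and origin genes had 11 lower and 1 higher in the double-negative against the double-positive subset (37.9% and 3.45%). The 22 further genes of nucleotide metabolism had 5 lower and 5 higher (22.7% each), near the shares of all genes. The 16 further E2F, cyclin and chromatin genes of S phase had 7 lower and 4 higher (43.8% and 25%).

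Cyclin A2, Ccna2, which drives S phase and entry into mitosis, was at 405 and 413 CPM in the single-positive, 628 and 504 in the double-positive and 209.6 and 218 in the double-negative libraries and was lowest in the double-negative subset (log2 fold change -1.40 (SE 0.13) against the double-positive subset and -0.93 (SE 0.12) against the single-positive subset, edgeR adjusted p = 0.000107 and 0.00302). Geminin, Gmnn, the inhibitor of Cdt1, was at 124 and 127 CPM in the single-positive, 168 and 180.4 in the double-positive and 84.5 and 97.2 in the double-negative libraries. It was higher in the double-positive than in the single-positive subset (0.47 (SE 0.11), edgeR adjusted p = 0.0344) and lower in the double-negative than in the double-positive subset (-0.94 (SE 0.11), edgeR adjusted p = 0.000411). Other genes lowest in the double-negative subset included the RNase H2 subunit Rnaseh2c (-1.15 against the double-positive subset and -0.66 against the single-positive subset), the nuclease Dna2 (-0.91 against the double-positive subset), the histone chaperone Asf1b (-1.07 against the single-positive subset) and the fork protein Donson (-0.63 against the single-positive subset), with edgeR adjusted p of 0.000336, 0.0134, 0.000513, 0.0116 and 0.0147. Genes higher in the double-negative subset were Tfdp2, a partner of the E2F proteins (0.87 against the double-positive subset and 0.55 against the single-positive subset, edgeR adjusted p = 0.000936 and 0.0216), and against the double-positive subset the dCMP deaminase Dctd (0.91), the clamp loader subunit Chtf8 (1.15) and the pocket protein Rbl2 (0.44), with edgeR adjusted p of 0.00177, 0.00432 and 0.0172. In the double-positive against the single-positive subset, the deubiquitinase Usp1, the polymerase delta subunit Pold4 and Rnaseh2b were higher (1.34, 0.80 and 0.42, edgeR adjusted p = 0.0121, 0.0184 and 0.036). The purine enzyme Ppat and the folate enzyme Shmt1 were lower (-0.48 and -0.54, edgeR adjusted p = 0.0323 and 0.0372).

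Mitosis genes moved in the same direction as the replication genes in the double-negative subset. All 16 on a list of mitotic kinases, cyclins and spindle proteins were lower in the double-negative than in the double-positive subset and than in the single-positive subset, with medians of -1.21 and -1.06, and 2 were higher in the double-positive than in the single-positive subset. Their summed level was 5241 to 5930.1 CPM in the single-positive subset, 6012 to 6204 in the double-positive subset and 2414 to 2965 in the double-negative subset. The summed CPM of the mitosis genes in the double-negative subset was 0.482 times that in the single-positive subset and 0.44 times that in the double-positive subset, and their summed TPM 0.532 and 0.515 times. The difference between both lists was not tested.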

How the data were processed

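RNA was measured in 6 libraries, grouped by the labels. Per the submitters' processing notes, reads were handled with Bowtie2 and RSEM on mm10. Their versions: not given in the sources used here. The sample tables deposited by the authors hold, per the file headers, RSEM expected counts (estimated counts, 12.6% of them not whole at a tolerance of 1e-06) and FPKM. A gene missing from a sample's table was taken as 0. RefSeq (GRCm38.p6, the mm10 assembly) gave positions for 15332 of 16135 genes, and exon overlaps came from GENCODE M21. Overlap percentages are of all exon bases annotated there for a gene, which can exceed its quantified length.

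Expected counts were rounded and tested with edgeR 4.0.16 (quasi-likelihood F test, R 4.3.3). The filter was filterByExpr (minimum count 10, minimum total 15), scaling was TMM, and all 6 libraries entered 1 fit with 1 coefficient per subset (3 residual degrees of freedom). P-values were adjusted by Benjamini-Hochberg over 12127 genes, threshold 0.05. The SE is the size of the log2 fold change over the square root of F. Summed TPM were FPKM rescaled to one total per library. The code was tested on simulated data. Alternatives were DESeq2 1.42.0, its size factors in edgeR, library totals, no filter, a replicate block, removal of the trend over gene length (loess, span 0.3), limma 3.58.1 on log2(FPKM + 1), and leaving out each library. Replicates were not copies of 1 library (chi-square per degree of freedom 19.6 to 22.3).

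The members, lists and tests were chosen with earlier results of these data known. Values in every library are given for up to 3 members per role group, those with the smallest adjusted p among members past the threshold (in chromatin assembly, with none, the member of highest mean FPKM). Rrm1 was added after its values were seen. Of other pathway genes, up to 4 per direction and comparison are named by the same order.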

Additional observations from a re-analysis of the deposited data

How the results depend on the processing

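Calls across the whole list were least stable for CD115+Ly6C+ against CD115+Ly6C-. The 3 lower genes became 6 with library totals or DESeq2, 5 without the filter or with limma on log2(FPKM + 1), 1 with the length trend removed, and 0 with the length trend removed and the replicate block. The 3 higher genes became 6 with DESeq2. All genes called went from 1164 to 1812 with DESeq2, 1810 without the filter, 716 with the length trend removed and 652 with the block added. Leaving out 1 library gave 0 to 3 higher, 0 to 2 lower and 220 to 1139 genes in all. For CD115-Ly6C- against CD115+Ly6C-, the median moved from -0.31 to -0.18 with library totals and -0.19 with limma, and leaving out 1 library gave 1 to 17 lower genes and 485 to 1744 in all. For CD115-Ly6C- against CD115+Ly6C+, the 2 higher genes became 1 with DESeq2's size factors in edgeR or the replicate block, 6 with library totals, 5 with limma, and 0 with the length trend removed, with or without the block. The 25 lower genes became 16 with the length trend removed and the block. The median of -0.43 became -0.24 with library totals or limma and -0.30 with the length trend removed, with or without the block. Leaving out 1 library gave 0 to 1 higher genes, medians of -0.50 to -0.27 and 2983 to 4632 genes in all. Fewer libraries are the construction of the last kind of fit; for the others the cause was not tested. Of 1008 alternatives for the 24 genes with values given in every library, 812 kept direction and side of the threshold, 130 lost a call, 24 gained one, 42 changed the sign of a value not called in either fit and 0 reversed a called value.

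Between pairs of subsets, correlations of same-numbered deviations from the subset means were -0.00, -0.01 and 0.15. With 2 libraries per subset they cannot tell whether same-numbered libraries shared a mouse or a sort, and the labels do not say. With the replicate block, 3 members were higher and 2 lower in the first comparison, 0 and 16 in the second and 1 and 25 in the third. It ended the calls of Mcm2 in the first, Pcna and Lig1 in the second and Mcm6 in the third. Every member had 270 or more counts in each library. What size of difference 2 libraries per subset could miss was not tested.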
